A study of Mus musculus with 16 samples.

Results

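Serine made from glucose and the single-carbon units taken from it meet in a short chain of enzymes, and 9 of their genes are described here in mouse embryonic stem (ES) cells that leave naive pluripotency. The genes are Phgdh, Psat1 and Psph of serine synthesis, Shmt1 and Shmt2, which split serine into glycine and a one-carbon unit, and Mthfd1, Mthfd1l, Mthfd2 and Aldh1l2, which convert folate-bound one-carbon units. They were picked by symbol from the deposited table of 27179 genes, with earlier results of these data known, and all 9 were found. In this pathway PHGDH, PSAT1 and PSPH act in that order to turn the glycolytic intermediate 3-phosphoglycerate into serine. SHMT2, MTHFD2, MTHFD1L and ALDH1L2 work in mitochondria, SHMT1 and MTHFD1 in the cytosol, and both compartments exchange serine, glycine and formate. The pathway supplies carbon for purines, thymidylate and methyl groups, and proliferating cells such as ES cells draw on it heavily.

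RNA was sequenced from ES cells kept in 2i/LIF, which is serum-free, or in serum/LIF+2i, which holds fetal bovine serum. Leukaemia inhibitory factor (LIF) and 2i, the inhibitors CHIR99021 (of GSK3) and PD0325901 (of MEK), were present in both media, so every group had been exposed to them before exit. Cells were collected at 0 h, or 12, 24 or 40 h after 2i, LIF and serum were withdrawn, which gave 8 groups of 2 libraries each with the 0 h cells as controls. By its title the study asks about amino acid intake in pluripotent states. The exit media were not the same. 2i/LIF cells kept a base of DMEM/F-12 and Neurobasal, whereas serum/LIF+2i cells went into Neurobasal and glutamine-free DMEM with glutamine added back. Effects of maintenance and of exit medium cannot be told apart. The time series that starts in each medium is called its course below. The protocol in the labels describes 24 and 40 h for cells from serum/LIF+2i, but libraries titled 12 h exist for both media, and the titles were followed. The labels name neither the ES cell line nor separate cultures for the 2 libraries of a group, so the p-values measure only the spread between these libraries, which may be technical. In such bulk samples fewer cells of a type and less RNA per cell cannot be told apart.

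The libraries held 5931381 to 11142744 counts over all genes, and at least 37 counts of each member. The 7 markers of pluripotent cells were above the floor of 3 counts in all 8 groups, and their sum went from 3267 to 3729 CPM (counts scaled to library size with the trimmed mean of M values) in the 0 h libraries to 1909 to 1993 CPM in the 40 h libraries. The markers did not move alike. Nanog went from a group mean of 665 CPM at 0 h to 27.8 CPM at 40 h in the 2i/LIF course. In the serum/LIF+2i course it went from 801 to 15.5 CPM. Esrrb, Zfp42, Sox2 and Sall4 fell as well in both media. Pou5f1 went from 641 to 635 CPM in the 2i/LIF course and from 707 to 676 CPM in the serum/LIF+2i course. Lin28a rose from 76.1 to 815 CPM and from 113 to 850 CPM. Markers of feeder fibroblasts summed to 1.78 to 10.5 CPM, with Postn at 0 in all libraries, where 3 counts correspond to at most 0.517 CPM. Other markers moved with time as well. Those of primitive endoderm summed to 6.23 to 6.76 CPM at 0 h, 2.41 to 3.56 CPM at 12 h and 10.6 to 16.3 CPM at 40 h, and those of trophoblast to 16.9 to 22.2 CPM at 0 h and 4.76 to 6.48 CPM at 40 h. The 4 neural markers went from 29.2 to 47.8 CPM in the 0 h libraries to 93.8 to 127 CPM in the 40 h libraries, and Tubb3 gave most of their sum. The other 3 rose as well. In group means of the 2i/LIF course Tubb3 went from 46.3 to 60.9 CPM, Sox1 from 0.659 to 22.6, Pax6 from 0.238 to 6.68 and Neurod1 from 0.400 to 7.09. In the serum/LIF+2i course Tubb3 went from 25.4 to 69.4 CPM, Sox1 from 4.33 to 47.2, Pax6 from 0.0735 to 5.75 and Neurod1 from 1.10 to 4.74. The part of these other cell types, and of the changes in pluripotency markers, in the results below was not tested. The 2 libraries of serum/LIF+2i at 24 h differed most from each other (chi-square per degree of freedom 5.42, against 1.39 to 3.14 in the other groups), and replicate 1 of that group had the highest share of ribosomal RNA counts, 1.77%.

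Most genes of the chain rose during exit from both media, with the mitochondrial enzymes and serine synthesis moving up and the cytosolic enzymes moving down. Calls were made at an adjusted p under 0.05 (edgeR's quasi-likelihood F test, Benjamini-Hochberg over 14288 tested genes). By 40 h in the 2i/LIF course 7 members were called higher, as were 34.1% of all tested genes, and 2 lower, as were 34.7%. By 40 h in the serum/LIF+2i course 7 were again higher (35.3% of genes) and 2 lower (35.3% of genes). With so many genes changed, the count of calls is not itself a result about the members. Their median log2 fold change was 0.85 in the 2i/LIF course and 1.18 in the serum/LIF+2i course, beside 0.01 and 0.00 over all tested genes. At 24 h the 2i/LIF course had 6 members higher (29.2% of genes) and 1 lower (29.6%), and the serum/LIF+2i course had 7 higher (32.4%) and 2 lower (32%). At 12 h the 2i/LIF course had 3 higher (21%) and 1 lower (23.7%), and the serum/LIF+2i course had 6 higher (25.3%) and 2 lower (25.9%). The comparisons at 12, 24 and 40 h share the 0 h libraries of their medium.

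**Figure D1:**
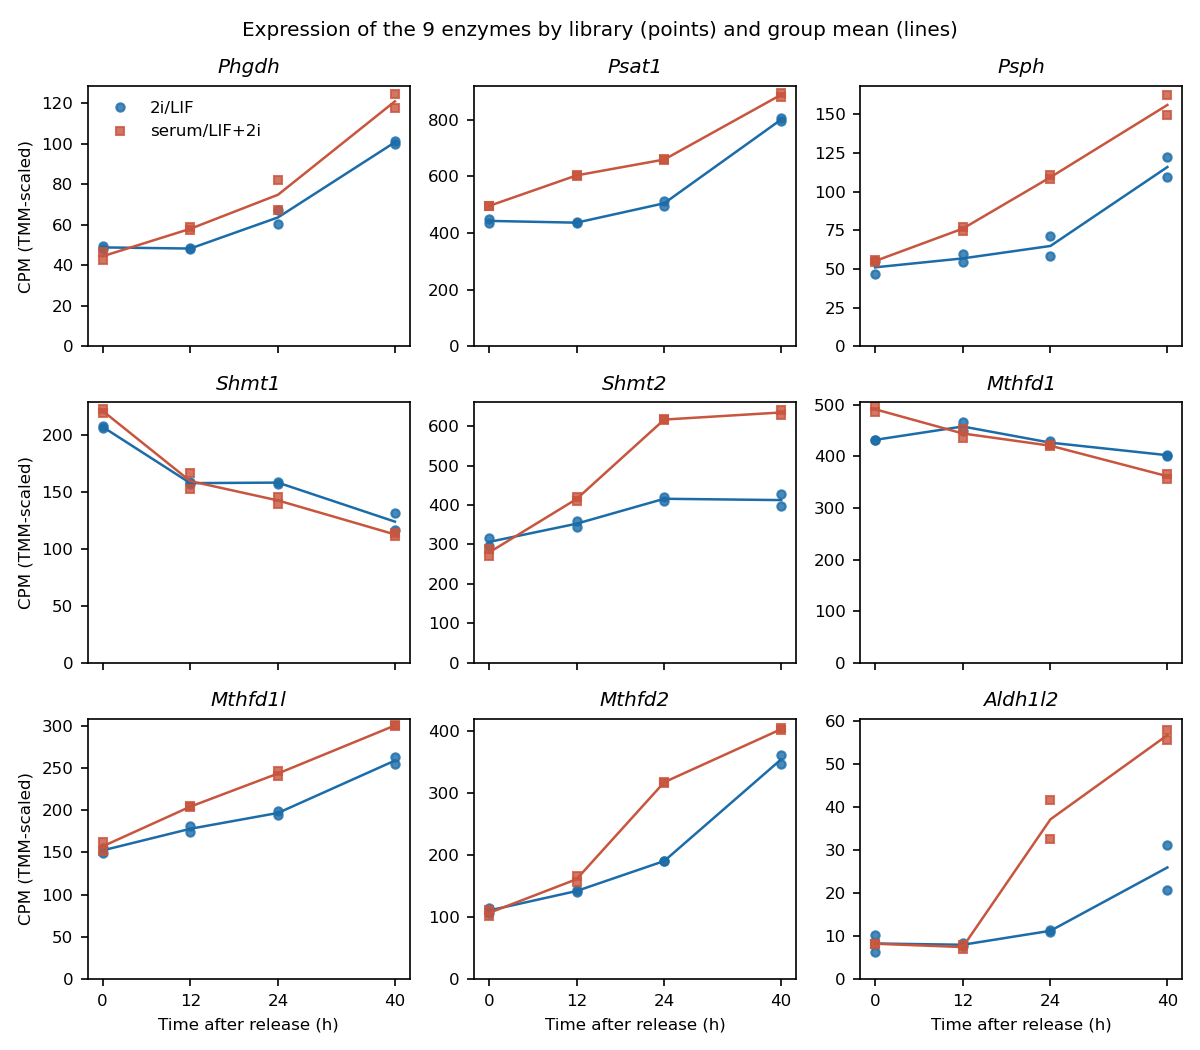
Expression of each of the 9 genes in CPM (vertical axes, each starting at 0) against hours after release (horizontal axes), with 1 point per library and lines through the means of 2 libraries in 2i/LIF (blue circles) and serum/LIF+2i (red squares). Phgdh, Psat1, Psph, Mthfd1l, Mthfd2 and Aldh1l2 are highest at 40 h in both media, Shmt2 levels off after 24 h, and Shmt1 is lowest at 40 h.

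**Figure D2:**
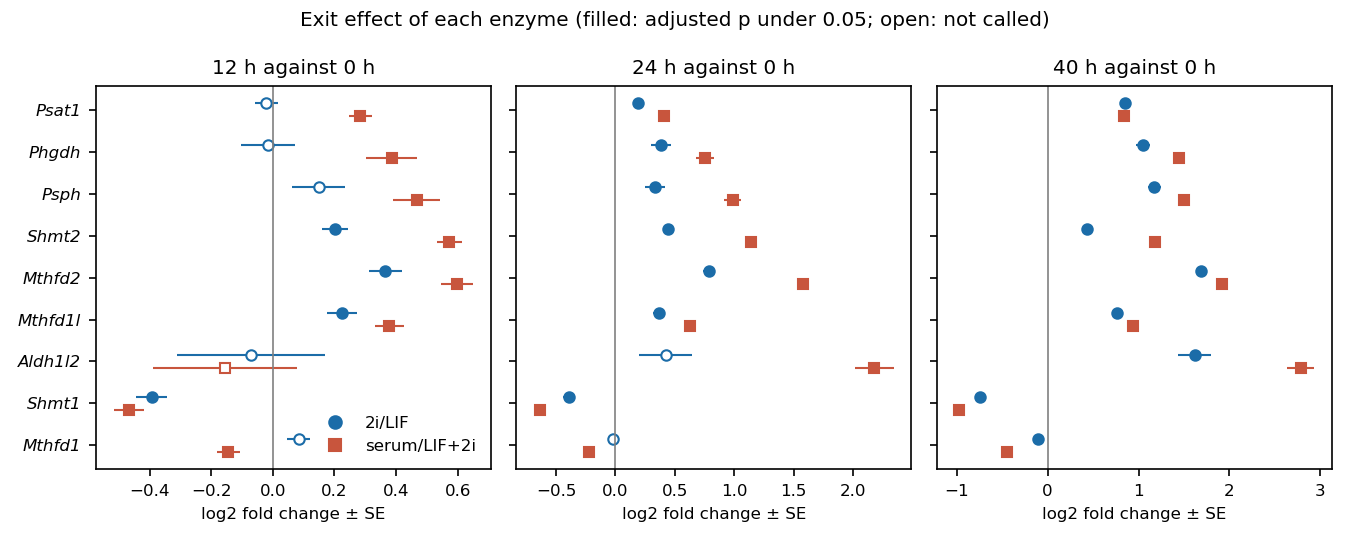
Exit effect of each gene as log2 fold change against 0 h with its standard error (horizontal axes, a different range in each panel) at 12, 24 and 40 h, in 2i/LIF (blue circles) and serum/LIF+2i (red squares); filled symbols are called and open ones are not. At 40 h all 18 symbols are filled, with Shmt1 and Mthfd1 to the left of 0 in both media.

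Psat1 (chr19:15905123-15925059, minus strand, GRCm38.p6), the aminotransferase that passes an amino group from glutamate to the serine precursor, was the most abundant member per transcript length at 0 h. Its promoter is shown because Psat1 carries most of the serine synthesis RNA (in TPM) and because the stretch shown holds 2 CCAAT boxes close to the start. The RefSeq table of promoter windows (250 bases before to 50 after a gene's start, GRCm38.p6) matched 8 members, Psat1 with 2 windows. The stretch upstream of the first Psat1 start that is free of annotated exons, chr19:15925060-15925309 on the minus strand, is given 5′ to 3′ with matches to CCAAT or GGGCGG on either strand in capitals.
Psat1: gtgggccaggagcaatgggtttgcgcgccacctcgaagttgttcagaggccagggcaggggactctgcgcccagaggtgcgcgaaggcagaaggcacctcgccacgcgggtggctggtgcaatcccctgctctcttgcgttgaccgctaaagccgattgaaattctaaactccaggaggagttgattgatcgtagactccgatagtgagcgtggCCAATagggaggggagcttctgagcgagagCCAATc
The stretch lies upstream of the RefSeq start but overlaps the span of Psat1 itself in the GENCODE annotation. The 2 CCAAT matches begin 36 and 6 bases before the start (positions -36 and -6). Across the 9 windows of the members, CCAAT was found in 6 and GGGCGG in 5, against 37.4% and 35.7% of all 32851 windows. The amino acid response core TGATGNAA, the cAMP response element TGACGTCA and the E-box CACGTG were searched on both strands as well. They were in 0 of the 9 windows, against 3.97%, 1.79% and 7.15% of all windows. A match is a description of letters, and the absence of one says only that these letters are not in the window.

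In the 2i/LIF course, Psat1 was at 436 and 449 CPM at 0 h, 435 and 438 CPM at 12 h, 497 and 514 CPM at 24 h and 797 and 805 CPM at 40 h. The 12 h libraries lay beside those at 0 h, and the 24 and 40 h libraries lay above both. The serum/LIF+2i course had Psat1 at 497 and 494 CPM at 0 h, 606 and 601 CPM at 12 h, 656 and 663 CPM at 24 h and 881 and 896 CPM at 40 h. Successive times did not overlap there. The rise by 40 h was nearly the same size in both media, 0.85 ± 0.04 (standard error, SE, of the log2 fold change; 1.81-fold, adjusted p = 6.76e-45) in the 2i/LIF course and 0.84 ± 0.04 (1.79-fold, adjusted p = 2.02e-45) in the serum/LIF+2i course. At 12 h Psat1 had risen by 0.28 ± 0.04 in the serum/LIF+2i course (adjusted p = 1.14e-11), and in the 2i/LIF course its value was -0.02 ± 0.04 (adjusted p = 0.683).

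Phgdh (chr3:98313171-98339969, minus strand), the dehydrogenase that opens serine synthesis, was at 49.6 and 48.2 CPM in the 2i/LIF course at 0 h and at 48.8 and 47.9 CPM at 12 h. It reached 60.3 and 67.2 CPM at 24 h and 100.2 and 101.5 CPM at 40 h. The 24 and 40 h libraries lay above the 0 h libraries without overlap. The serum/LIF+2i libraries of Phgdh were at 42.5 and 46.6 CPM at 0 h, 57.3 and 58.9 CPM at 12 h, 67.6 and 82.2 CPM at 24 h and 124 and 118 CPM at 40 h. Replicate 2 at 24 h stood above replicate 1 of that group by more than the spread of the other Phgdh groups. By 40 h Phgdh had risen by 1.05 ± 0.08 in the 2i/LIF course (2.06-fold, adjusted p = 1.24e-24) and by 1.44 ± 0.07 in the serum/LIF+2i course (2.72-fold, adjusted p = 4.31e-38).

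Psph (chr5:129765558-129787443, minus strand), the phosphatase of the last step, was at 47.1 and 55.1 CPM at 0 h in the 2i/LIF course, 54.3 and 59.5 CPM at 12 h, 58.7 and 71.1 CPM at 24 h and 109 and 123 CPM at 40 h. The serum/LIF+2i libraries were at 54.4 and 56.0 CPM at 0 h, 74.7 and 77.5 CPM at 12 h, 108 and 111 CPM at 24 h and 149.6 and 163 CPM at 40 h. Each time point in the serum/LIF+2i course lay above the one before, whereas the libraries of the first 3 time points in the 2i/LIF course overlapped in turn. The rise by 40 h was 1.17 ± 0.07 (2.26-fold, adjusted p = 9.27e-26) in the 2i/LIF course and 1.50 ± 0.07 (2.83-fold, adjusted p = 1.78e-36) in the serum/LIF+2i course. The 24 h rise of Psph in the 2i/LIF course, 0.33 ± 0.08 (adjusted p = 0.000424), was lost without replicate 1 at 0 h (0.22, adjusted p = 0.0555) or replicate 2 at 24 h (0.20, adjusted p = 0.089). Psph shares 452 exonic bases with Cct6a on the opposite strand, and whether reads were counted by strand is not given in the sources used here. Cct6a, a chaperonin subunit gene with 3632 to 8620 counts per library, rose by 0.31 ± 0.04 in the 2i/LIF course and by 0.08 ± 0.04 in the serum/LIF+2i course at 40 h. How far reads of Cct6a enter the Psph count was not tested.

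The 2 serine hydroxymethyltransferases moved in opposite directions. Shmt2 (chr10:127517123-127522444, minus strand) encodes the mitochondrial enzyme and Shmt1 (chr11:60788897-60811265, minus strand) the cytosolic one. Their promoters are shown side by side because the letters differ. The Shmt2 window holds none of the 5 motifs and has a GC content of 42.7%. The Shmt1 window has a GC content of 60.7% and 5 matches in the stretch shown, 2 of them overlapping. The stretches are chr10:127522445-127522694 and chr11:60811266-60811466, both on the minus strand of GRCm38.p6 from RefSeq, with CCAAT and GGGCGG on either strand in capitals.
Shmt2: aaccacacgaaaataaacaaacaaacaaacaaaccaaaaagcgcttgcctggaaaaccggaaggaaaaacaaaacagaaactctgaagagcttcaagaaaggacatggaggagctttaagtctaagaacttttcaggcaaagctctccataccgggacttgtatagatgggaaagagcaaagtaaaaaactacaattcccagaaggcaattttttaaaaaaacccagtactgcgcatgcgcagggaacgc
Shmt1: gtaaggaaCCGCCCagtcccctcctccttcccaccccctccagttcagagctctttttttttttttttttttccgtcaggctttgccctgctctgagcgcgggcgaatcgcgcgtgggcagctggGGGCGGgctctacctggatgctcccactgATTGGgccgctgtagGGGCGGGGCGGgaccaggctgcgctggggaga
In the GENCODE annotation the Shmt1 stretch overlaps the span of Shmt1 itself, whereas the Shmt2 stretch overlaps no gene. Whether these letters bear on the expression of either gene was not tested.

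Shmt2 was at 296 and 316 CPM in the 2i/LIF course at 0 h, 360.3 and 345 CPM at 12 h, 410.1 and 421 CPM at 24 h and 397 and 427 CPM at 40 h. The serum/LIF+2i libraries of Shmt2 were at 269.9 and 288 CPM at 0 h, 410.2 and 419.8 CPM at 12 h, 618.5 and 615 CPM at 24 h and 642 and 628 CPM at 40 h. In both media the 24 and 40 h libraries lay above those at 0 and 12 h, with the higher levels in the serum/LIF+2i course, and in the 2i/LIF course the 24 and 40 h libraries overlapped. Its rise by 40 h was 0.43 ± 0.04 in the 2i/LIF course (1.35-fold, adjusted p = 4.84e-18) and 1.18 ± 0.04 in the serum/LIF+2i course (2.27-fold, adjusted p = 1.21e-55).

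Shmt1 was at 206 and 208 CPM in the 2i/LIF course at 0 h, 157 and 159 CPM at 12 h, 157 and 159 CPM at 24 h and 131 and 117 CPM at 40 h. The serum/LIF+2i libraries of Shmt1 were at 219 and 223 CPM at 0 h, 152 and 167 CPM at 12 h, 146 and 139 CPM at 24 h and 111 and 114 CPM at 40 h. All later libraries lay below those at 0 h in both media. Shmt1 fell by 0.74 on the log2 scale by 40 h in the 2i/LIF course (SE 0.05, adjusted p = 2.69e-26) and by 0.97 in the serum/LIF+2i course (SE 0.05, adjusted p = 5.12e-38). Shmt1 shares 184 exonic bases with Smcr8 on the opposite strand, and Smcr8 fell as well, by 1.26 on the log2 scale in the 2i/LIF course and by 0.55 in the serum/LIF+2i course. How far reads of Smcr8 enter the Shmt1 count was not tested.

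Mthfd2 (chr6:83305704-83326011, minus strand), the mitochondrial dehydrogenase and cyclohydrolase of one-carbon folates, was with Aldh1l2 the gene of the largest rise by 40 h. The window of the start given in the RefSeq table lies inside the annotated span of the gene, and its exon-free stretch, chr6:83317607-83317854 on the minus strand, holds 3 CCAAT matches. CCAAT was also found in the windows of Phgdh, Psat1, Psph, Shmt1 and Mthfd1, and not in those of Shmt2 and Mthfd1l. Whether these letters bear on the expression of Mthfd2 was not tested. The stretch is shown again with matches in capitals.
Mthfd2: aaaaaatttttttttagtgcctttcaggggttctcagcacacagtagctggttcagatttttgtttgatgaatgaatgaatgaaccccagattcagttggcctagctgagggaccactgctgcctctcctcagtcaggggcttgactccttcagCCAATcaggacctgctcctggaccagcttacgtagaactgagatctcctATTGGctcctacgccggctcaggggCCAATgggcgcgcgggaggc
In the 2i/LIF course Mthfd2 was at 115 and 106 CPM at 0 h, 140.1 and 144 CPM at 12 h, 189.6 and 191 CPM at 24 h and 347 and 361 CPM at 40 h. Starting from serum/LIF+2i, Mthfd2 was at 101 and 112 CPM at 0 h, 156 and 166 CPM at 12 h, 318 and 316 CPM at 24 h and 404 and 401 CPM at 40 h. The times did not overlap in either medium, and the level at 24 h in the serum/LIF+2i course was not reached in the 2i/LIF course until 40 h. By 40 h Mthfd2 had risen by 1.68 ± 0.05 in the 2i/LIF course (3.21-fold, adjusted p = 7.75e-62) and by 1.92 ± 0.05 in the serum/LIF+2i course (3.78-fold, adjusted p = 8.85e-70).

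Mthfd1l (chr10:3972892-4167081, plus strand), which releases formate from the mitochondrial folate pool, was at 149.4 and 155 CPM at 0 h in the 2i/LIF course, 175 and 181 CPM at 12 h, 195 and 199 CPM at 24 h and 263 and 255 CPM at 40 h. Starting from serum/LIF+2i, it measured 152 and 162 CPM at 0 h, 203 and 205 CPM at 12 h, 240.0 and 247 CPM at 24 h and 299.8 and 300.7 CPM at 40 h. Each time lay above the one before in both media, with no overlap. It rose by 0.76 ± 0.05 in the 2i/LIF course (1.70-fold, adjusted p = 5.81e-31) and by 0.93 ± 0.04 in the serum/LIF+2i course (1.91-fold, adjusted p = 9.2e-41).

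Aldh1l2 (chr10:83487447-83534146, minus strand), the mitochondrial dehydrogenase that oxidizes formyl-folate to carbon dioxide with the formation of NADPH, was the rarest member. In the 2i/LIF course it was at 6.38 and 10.2 CPM at 0 h, 7.67 and 8.29 CPM at 12 h, 11.5 and 10.9 CPM at 24 h and 20.8 and 31.1 CPM at 40 h. Starting from serum/LIF+2i, it measured 8.23 and 8.23 CPM at 0 h, 7.97 and 6.92 CPM at 12 h, 32.6 and 41.7 CPM at 24 h and 55.5 and 58.0 CPM at 40 h. The 12 h libraries lay beside those at 0 h in both media, and the 24 h libraries of the serum/LIF+2i course were already above the 40 h libraries of the 2i/LIF course. It rose by 1.62 ± 0.19 in the 2i/LIF course (3.07-fold, adjusted p = 1.91e-10) and by 2.78 ± 0.15 in the serum/LIF+2i course (6.88-fold, adjusted p = 3.67e-21) by 40 h. The 2 Aldh1l2 libraries at 0 h in the 2i/LIF course hold 37 and 67 counts, so the values that use them are the least precise of the members. Aldh1l2 shares 1056 exonic bases with D10Wsu102e on the opposite strand, a gene with 516 to 1285 counts per library. The 40 h values of D10Wsu102e were 0.12 ± 0.06 (adjusted p = 0.0842) in the 2i/LIF course and 0.17 ± 0.06 (adjusted p = 0.00503) in the serum/LIF+2i course. How far reads of D10Wsu102e enter the Aldh1l2 count was not tested.

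Mthfd1 (chr12:76254406-76319820, plus strand), the cytosolic enzyme that joins 3 activities of folate interconversion, had the smallest log2 fold changes of the 9 genes at 40 h. In the 2i/LIF course it was at 433 and 431 CPM at 0 h, 450.1 and 466 CPM at 12 h, 429 and 424 CPM at 24 h and 402 and 403 CPM at 40 h. Starting from serum/LIF+2i, Mthfd1 measured 485 and 498 CPM at 0 h, 436 and 453 CPM at 12 h, 419.6 and 422 CPM at 24 h and 357 and 366 CPM at 40 h. The 40 h libraries lay below those at 0 h in both media, while at 12 h the 2i/LIF libraries lay above their 0 h libraries and the serum/LIF+2i libraries below theirs. The 12 h value in the 2i/LIF course, 0.08 ± 0.04 (adjusted p = 0.0588), was not called, and that in the serum/LIF+2i course was -0.14 ± 0.04 (adjusted p = 0.000486). Mthfd1 fell by 0.44 on the log2 scale in the serum/LIF+2i course (SE 0.04, adjusted p = 2.14e-21). In the 2i/LIF course it fell by 0.10 (SE 0.04, adjusted p = 0.0122), a call that was lost with DESeq2 (adjusted p = 0.0811), with library size alone as the scaling (-0.04, adjusted p = 0.414) and without the ribosomal RNA genes (adjusted p = 0.0949).

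Levels of different genes can be compared per transcript length, as TPM (counts divided by the deposited gene length and scaled to the same total in each library). At 0 h the order in the 2i/LIF course was Psat1 at 396 ± 0.784 TPM (SD, n = 2, as below), Shmt2 at 295 ± 7.81 TPM, Mthfd1 at 289 ± 5.88 TPM, Shmt1 at 223 ± 2.79 TPM, Mthfd2 at 119 ± 8.50 TPM, Mthfd1l at 78.2 ± 0.654 TPM, Psph at 73.9 ± 6.90 TPM, Phgdh at 58.1 ± 2.33 TPM and Aldh1l2 at 3.04 ± 0.934 TPM. The libraries of Shmt2 and Mthfd1 overlapped, as did those of Mthfd1l and Psph, so these neighbours were not separated. At 40 h in the 2i/LIF course the TPM order was Psat1 (749 ± 13.2), Shmt2 (417 ± 25.8), Mthfd2 (399 ± 15.3), Mthfd1 (282 ± 3.67), Psph (176 ± 16.3), Shmt1 (139.7 ± 10.0), Mthfd1l (139 ± 1.61), Phgdh (126 ± 2.48) and Aldh1l2 (10.0 ± 2.93). Mthfd2 had moved up beside Shmt2, and the libraries of that pair and of Shmt1 and Mthfd1l overlapped. In the serum/LIF+2i course at 40 h, Psat1 (874 ± 10.9 TPM), Shmt2 (675 ± 10.4 TPM) and Mthfd2 (477 ± 2.66 TPM) led, and Shmt1 (134 ± 2.41 TPM) had dropped from the fourth place at 0 h to the eighth, above Aldh1l2 alone.

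**Figure D3:**
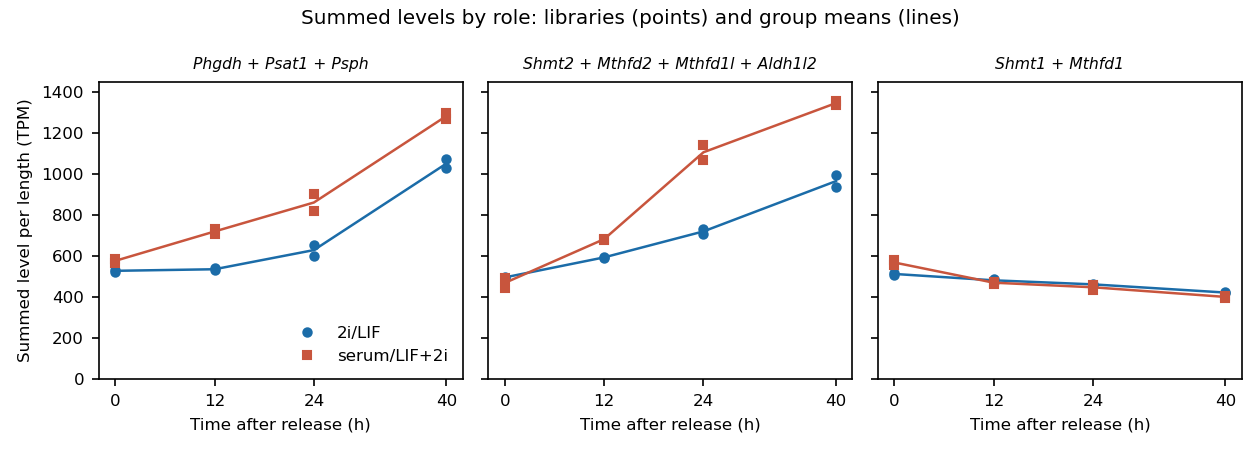
Summed TPM (vertical axes from 0) of the 3 serine synthesis genes, the 4 mitochondrial folate genes and the 2 cytosolic folate genes against hours after release, with points for libraries and lines for means of 2 libraries in 2i/LIF (blue circles) and serum/LIF+2i (red squares). The mitochondrial sum rises to 964 TPM in the 2i/LIF course and 1345 TPM in the serum/LIF+2i course at 40 h while the cytosolic sum declines to 422 and 400.3 TPM.

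Summed by compartment, the balance of RNA among the folate enzymes that are members moved towards the mitochondrial genes. Other folate genes are not in these sums. At 0 h in the 2i/LIF course the mitochondrial genes summed to 495 ± 0.895 TPM and the cytosolic genes to 512 ± 8.67 TPM, and at 40 h the sums were 964 ± 42.4 and 422 ± 6.33 TPM. In the serum/LIF+2i course the mitochondrial sum was 468 ± 32.2 TPM at 0 h and 1345 ± 12.0 TPM at 40 h, and the cytosolic sum was 568 ± 17.9 and 400.3 ± 7.38 TPM. The ratio of Shmt2 to Shmt1 in TPM was 1.29 and 1.36 in the 0 h libraries and 2.72 and 3.28 in the 40 h libraries of the 2i/LIF course. In the serum/LIF+2i course this ratio went from 1.10 and 1.16 to 5.17 and 4.93. The ratio of Mthfd2 to Mthfd1 in TPM crossed 1 in both media, from 0.425 and 0.396 to 1.39 and 1.44 in the 2i/LIF course and from 0.334 and 0.362 to 1.82 and 1.76 in the serum/LIF+2i course. The serine synthesis sum was 528 ± 5.35 TPM at 0 h and 1050.1 ± 32.0 TPM at 40 h in the 2i/LIF course, and 576 ± 12.5 and 1282 ± 19.2 TPM in the serum/LIF+2i course. All 9 genes together held 1533 to 1657 TPM in the 0 h libraries of both media. At 40 h they held 2388 to 2484 TPM in the 2i/LIF course and 3016 to 3037 TPM in the serum/LIF+2i course.

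The genes differed in when they moved. From 12 to 24 h the 2i/LIF course had 5 members called higher (17.4% of genes) and 1 lower (17.7%), and the serum/LIF+2i course had 7 higher (24.2%) and 1 lower (24.2%). From 24 to 40 h the 2i/LIF course had 6 higher (22.2%) and 1 lower (24.5%), and the serum/LIF+2i course had 6 higher (25.9%) and 2 lower (24.6%). The rises of Shmt2 were called before 24 h. It rose by 0.20 ± 0.04 and 0.24 ± 0.04 over the first intervals in the 2i/LIF course and by 0.57 ± 0.04 in each of them in the serum/LIF+2i course. From 24 to 40 h its values were -0.01 ± 0.04 (adjusted p = 0.823) and 0.04 ± 0.04 (adjusted p = 0.347). With library size alone as the scaling, the last of these was 0.09 (adjusted p = 0.0314). The serine synthesis genes in the 2i/LIF course did the reverse, and most of their change fell in the last interval, where Psat1 rose by 0.66 ± 0.04, Phgdh by 0.67 ± 0.07 and Psph by 0.84 ± 0.07. In the serum/LIF+2i course Phgdh rose by 0.39 ± 0.08, 0.37 ± 0.07 and 0.69 ± 0.06 in successive intervals, and Psph by 0.47 ± 0.08, 0.52 ± 0.06 and 0.51 ± 0.05. Aldh1l2 in the serum/LIF+2i course moved mostly from 12 to 24 h, by 2.33 ± 0.16 (5.04-fold, adjusted p = 4.89e-17).

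**Figure D4:**
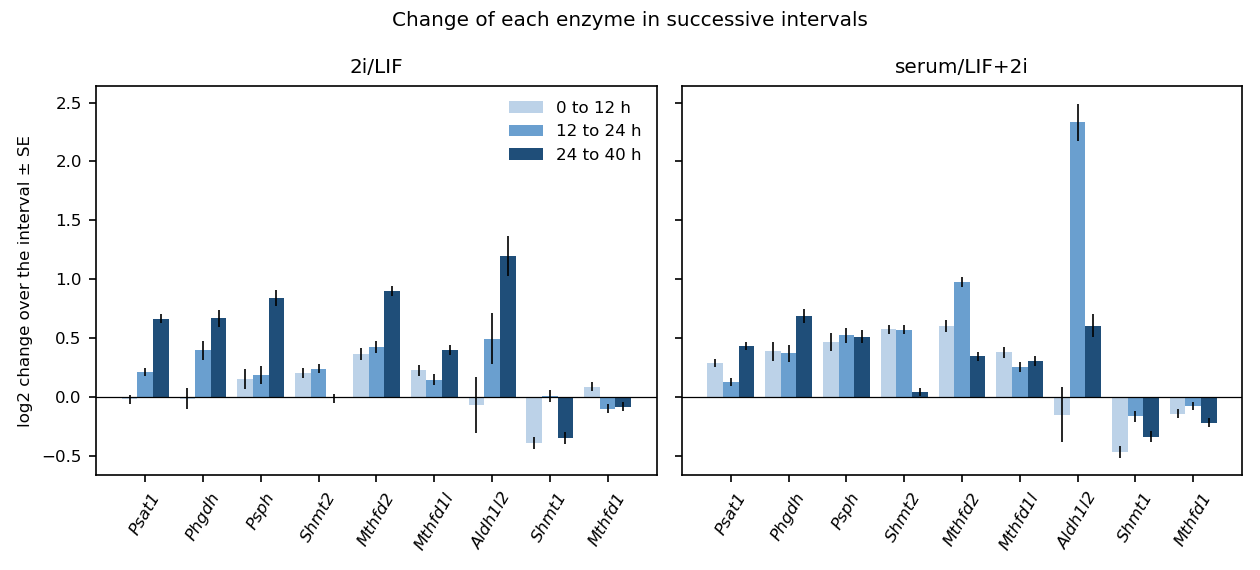
Log2 change of each gene over successive intervals (vertical axis, with bars from 0 and SE as lines) in 2i/LIF (left) and serum/LIF+2i (right), from light (0 to 12 h) to dark (24 to 40 h). The dark bars are the tallest for Psat1, Phgdh, Psph, Mthfd2, Mthfd1l and Aldh1l2 in the 2i/LIF course, whereas in the serum/LIF+2i course Mthfd2 and Aldh1l2 have their tallest bars from 12 to 24 h and Shmt2 has nearly none after 24 h.

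The last interval was also compared between media by a test of the difference, added after the values had been seen, in which 6.57% of genes were called higher and 5.63% lower. Members were called lower in 4 cases and higher in 0. Mthfd2 rose less from 24 to 40 h after serum/LIF+2i than after 2i/LIF, by -0.55 ± 0.06 on the log2 scale (adjusted p = 2.06e-13), as did Psat1 (-0.24 ± 0.05, adjusted p = 0.000177), Psph (-0.33 ± 0.09, adjusted p = 0.00624) and Aldh1l2 (-0.59 ± 0.20, adjusted p = 0.042). For Phgdh the difference was 0.02 ± 0.09 (adjusted p = 0.913), and the other 4 members were not called either.

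The media differed little in these genes before exit and more after it. At 0 h 2 members were called higher in serum/LIF+2i (14.6% of genes) and 1 lower (18.4%). Mthfd1 was higher by 0.19 ± 0.04 (adjusted p = 2.57e-05), Psat1 was higher by 0.16 ± 0.04 (adjusted p = 0.000208) and Shmt2 was lower by -0.13 ± 0.04 (adjusted p = 0.00768). The Shmt2 call was lost without replicate 2 of the 2i/LIF course at 0 h (-0.09, adjusted p = 0.214) or replicate 1 of the serum/LIF+2i course at 0 h (-0.09, adjusted p = 0.198). At 12 h 6 members were higher in the serum/LIF+2i course (14.8% of genes) and 0 lower (15.5%). At 24 h 7 were higher (14.1%) and 1 lower (17%), and at 40 h 7 were higher (13.9%) and 2 lower (13.4%). At 24 h the differences ran up to 1.73 ± 0.15 for Aldh1l2 (3.31-fold, adjusted p = 7.51e-13), 0.76 ± 0.07 for Psph (1.69-fold, adjusted p = 2.33e-16), 0.74 ± 0.04 for Mthfd2 (1.67-fold, adjusted p = 1.27e-30) and 0.57 ± 0.04 for Shmt2 (1.48-fold, adjusted p = 1.38e-26). These rest on the group whose libraries differed most from each other. Without its replicate 1, the one richest in ribosomal RNA, the values were 1.89, 0.78, 0.73 and 0.56, and without its replicate 2 they were 1.53, 0.74, 0.74 and 0.57, all called. The 8 calls at 24 h stayed at 8 without replicate 1 and became 6 without replicate 2, where Phgdh and Shmt1 (-0.12, adjusted p = 0.16) were not called. The Shmt1 call at 24 h was also lost without replicate 1 or 2 of the 2i/LIF course at 24 h (adjusted p = 0.0598 and 0.0905) and with DESeq2 (adjusted p = 0.119). At 40 h those of Mthfd2 and Psat1 had narrowed to 0.19 ± 0.04 (adjusted p = 6.84e-05) and 0.15 ± 0.03 (adjusted p = 0.000275), and that of Shmt2 stood at 0.62 ± 0.04 (adjusted p = 8.74e-30). The Phgdh difference at 24 h, 0.24 ± 0.07 (adjusted p = 0.00552), rested on single libraries. It was 0.09 (adjusted p = 0.521) without replicate 2 of the serum/LIF+2i course at 24 h and 0.16 (adjusted p = 0.21) without replicate 1 of the 2i/LIF course at 24 h. The Shmt1 difference at 40 h, -0.14 ± 0.05 (adjusted p = 0.035), was -0.05 (adjusted p = 0.66) without replicate 1 of the 2i/LIF course at 40 h, and it was not called without either library of the serum/LIF+2i course at 40 h (adjusted p = 0.177 and 0.0575). DESeq2 called neither of these differences (adjusted p = 0.0606 for Phgdh and 0.175 for Shmt1).

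Whether the exit effect itself differed between the media was tested by the interaction, the exit effect after serum/LIF+2i minus that after 2i/LIF. At 12 h it was called above 0 for 4 members (4.8% of genes) and below 0 for 1 (4.4%). At 24 h it was above 0 for 7 (9.77%) and below for 2 (11%), and at 40 h above for 6 (14.8%) and below for 2 (12.8%). The 5 calls at 12 h became 3 with DESeq2, without replicate 1 of the serum/LIF+2i course at 0 h or without its replicate 2 at 12 h, and the 8 at 40 h became 5 with DESeq2 or without replicate 2 of the 2i/LIF course at 0 h. Shmt2 differed at all 3 times, by 0.37 ± 0.06 at 12 h (adjusted p = 2.63e-07), 0.70 ± 0.06 at 24 h (adjusted p = 1.43e-20) and 0.76 ± 0.06 at 40 h (adjusted p = 6.07e-23). Mthfd2 differed by 0.79 ± 0.07 at 24 h (adjusted p = 1.81e-17) and by 0.24 ± 0.07 at 40 h (adjusted p = 0.00496). The second value was not called without replicate 1 of the 2i/LIF course at 0 h (0.19, adjusted p = 0.0795) or replicate 1 of the serum/LIF+2i course at 0 h (0.16, adjusted p = 0.113). Psat1 differed by 0.31 ± 0.05 at 12 h (adjusted p = 2.91e-06) and 0.22 ± 0.05 at 24 h (adjusted p = 0.000348). At 40 h its difference was -0.01 ± 0.05 (adjusted p = 0.904). Aldh1l2 differed by 1.76 ± 0.30 at 24 h (adjusted p = 1e-05) and by 1.16 ± 0.27 at 40 h (adjusted p = 0.000887). The 40 h value was 0.77 (adjusted p = 0.106) without replicate 2 of the 2i/LIF course at 0 h.

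Among the other serine synthesis genes, Psph differed by 0.65 ± 0.11 at 24 h (adjusted p = 2.46e-06). Its value at 40 h, 0.32 ± 0.10 (adjusted p = 0.0126), was not called without replicate 2 of the 2i/LIF course at 0 h (0.20, adjusted p = 0.281), replicate 1 of the 2i/LIF course at 40 h (0.24, adjusted p = 0.1) or replicate 2 of the serum/LIF+2i course at 40 h (0.27, adjusted p = 0.064). Phgdh differed by 0.40 ± 0.11 at 40 h (adjusted p = 0.00244). Its 24 h value of 0.37 ± 0.12 (adjusted p = 0.0112) was not called without replicate 2 of the serum/LIF+2i course at 24 h (0.22, adjusted p = 0.237), its replicate 1 at 0 h (0.31, adjusted p = 0.0785) or replicate 1 of the 2i/LIF course at 24 h (0.29, adjusted p = 0.105). Mthfd1l differed by 0.26 ± 0.07 at 24 h (adjusted p = 0.00128) and by 0.17 ± 0.06 at 40 h (adjusted p = 0.0362). The latter was lost without replicate 2 of the 2i/LIF course at 0 or 40 h, or without replicate 1 at 0 h or either library at 40 h of the serum/LIF+2i course (0.13 to 0.18, adjusted p = 0.0624 to 0.212). The cytosolic enzymes fell further after serum/LIF+2i. Mthfd1 differed by -0.34 ± 0.05 at 40 h (adjusted p = 7.55e-08) and Shmt1 by -0.23 ± 0.07 (adjusted p = 0.00785), the latter at -0.15 (adjusted p = 0.189) without replicate 1 of the 2i/LIF course at 40 h. DESeq2 did not call Phgdh at 24 h (adjusted p = 0.069), nor Psph, Shmt1 and Mthfd1l at 40 h (adjusted p = 0.0826, 0.0748 and 0.119).

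Genes around the chain were counted in 3 lists. Of 23 folate partners (enzymes and carriers that use, store or move folates), 22 passed the filter on low counts and Ftcd did not. At 40 h 10 were called higher (34.1% of all genes) and 5 lower (34.7%) in the 2i/LIF course, with a median log2 fold change of 0.16. In the serum/LIF+2i course 9 were higher (35.3%) and 5 lower (35.3%), with a median of 0.08. The glycine cleavage system, which feeds one-carbon units from glycine in mitochondria, split. Gldc, its decarboxylase, rose by 1.36 ± 0.04 in the 2i/LIF course and 1.14 ± 0.04 in the serum/LIF+2i course. Amt, its aminomethyltransferase, fell by 1.39 and 1.78 on the log2 scale. Aldh1l1, the cytosolic counterpart of Aldh1l2, fell by 3.79 on the log2 scale in the 2i/LIF course (from 63.6 and 78.8 CPM at 0 h to 5.01 and 5.30 CPM at 40 h) and by 2.89 in the serum/LIF+2i course (from 30.9 and 35.4 CPM to 4.22 and 4.74 CPM). Like Shmt1 against Shmt2, the cytosolic member of this pair fell where the mitochondrial member rose. Gart, an enzyme of purine synthesis that takes up formyl-folate, rose by 0.84 ± 0.04 in the 2i/LIF course and 0.38 ± 0.04 in the serum/LIF+2i course.

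Of 10 genes of serine uptake and use, 8 passed the filter and Sds and Sdsl did not. At 40 h 2 were called higher (34.1% of all genes) and 5 lower (34.7%) in the 2i/LIF course (median -0.49), and 3 higher (35.3%) and 4 lower (35.3%) in the serum/LIF+2i course (median -0.20). Slc1a4, a transporter of serine and other small neutral amino acids, rose by 1.25 ± 0.07 in the 2i/LIF course and 2.22 ± 0.07 in the serum/LIF+2i course, and Slc1a5, a related transporter that also carries glutamine, by 0.16 and 0.51. Cbs, which condenses serine with homocysteine, fell by 2.07 and 2.11 on the log2 scale, and Sptlc2, a subunit of the enzyme that uses serine for sphingolipids, by 0.92 and 0.95. The list did not move one way. Of its other genes, named after their values were seen, Cth, which acts after Cbs, rose by 0.44 ± 0.04 in the serum/LIF+2i course (adjusted p = 3.43e-18) and was at 0.02 ± 0.05 in the 2i/LIF course (adjusted p = 0.74). Srr, serine racemase, was at -0.02 ± 0.23 in the serum/LIF+2i course (adjusted p = 0.952). In the 2i/LIF course Srr was called lower, from 5.17 and 5.62 CPM at 0 h to 2.76 and 3.94 CPM at 40 h.

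ATF4, a transcription factor of the response to amino acid shortage, is known to activate several members of the chain. In a list of Atf4 and 14 other known targets, 14 were called higher and 1 lower at 40 h in each medium, with medians of 0.89 in the 2i/LIF course and 1.11 in the serum/LIF+2i course. Of all genes, 34.1% were called higher and 34.7% lower in the former, and 35.3% each way in the latter. Atf4 itself rose by 0.84 ± 0.04 in the 2i/LIF course, from 292 and 283 CPM to 512 and 518 CPM, and by 1.05 ± 0.04 in the serum/LIF+2i course, from 249 and 254 CPM to 524 and 516 CPM. Chac1, a glutathione-degrading enzyme, rose by 3.49 ± 0.11 and 4.03 ± 0.10, and Trib3, a pseudokinase, by 1.34 ± 0.07 and 2.44 ± 0.06. Asns, asparagine synthetase, was the exception and fell by 1.39 on the log2 scale in the 2i/LIF course (from 1269 and 1266 CPM to 455 and 513 CPM) and by 1.49 in the serum/LIF+2i course (from 1592 and 1634 CPM to 563 and 581 CPM). Between the media, 3 listed genes were called higher after serum/LIF+2i (14.6% of all genes) and 5 lower (18.4%) at 0 h, and 5 higher (14.8%) and 3 lower (15.5%) at 12 h. At 24 h 15 were higher (14.1%) and 0 lower (17%), and at 40 h 11 were higher (13.9%) and 1 lower (13.4%). The 24 h libraries had Atf4 at 343 and 357 CPM in the 2i/LIF course and 479.8 and 488 CPM in the serum/LIF+2i course. Whether ATF4 acts on the 9 genes here was not tested.

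**Figure D5:**
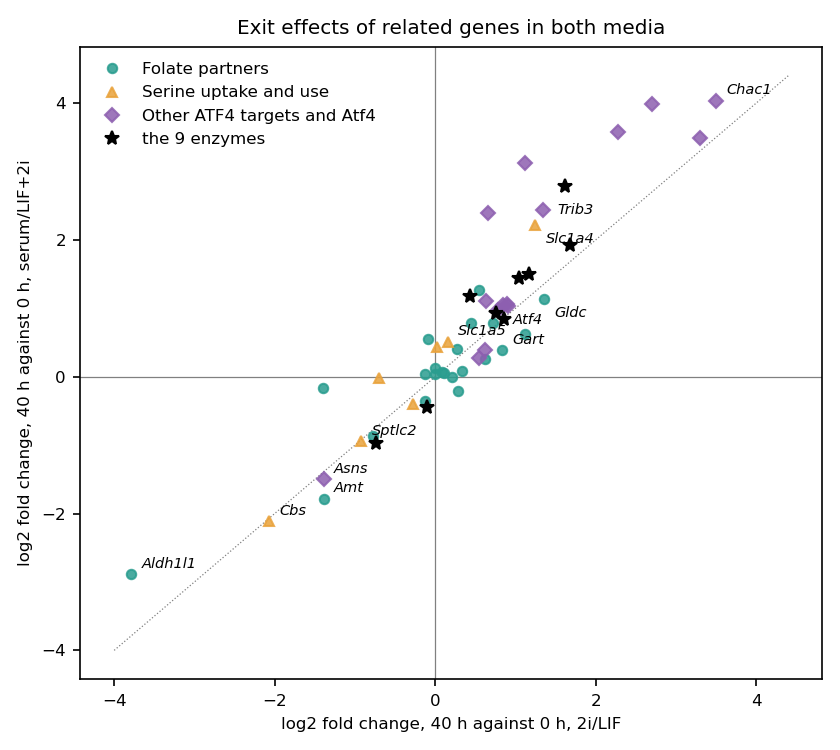
Log2 fold change from 0 to 40 h in the serum/LIF+2i course (vertical axis) against that in 2i/LIF (horizontal axis) for the 9 genes (black stars), folate partners (green circles), genes of serine uptake and use (orange triangles) and Atf4 with its other targets (purple diamonds); the dotted line marks equal values and Sptlc3, at 0 counts at 40 h, is left out. The stars of 7 genes lie above 0 on both axes, and Asns, Amt, Cbs and Aldh1l1 lie below 0 on both.

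Over the 8 group means of log2 CPM, the 7 members that rose correlated with each other at r from 0.76 to 0.98 (21 pairs), Shmt1 with Mthfd1 at 0.84, and either of these with the rising members at -0.96 to -0.78 (14 pairs). These values are descriptions over points that share libraries, a time course and one scaling. Among 10686 genes that averaged 5 CPM or more, those most like Phgdh were Thbs3 (0.99), Miat (0.99) and Spred3 (0.99). Those most like Mthfd2 were Tsc22d3 (0.99), Exoc2 (0.99) and Lars (0.99), the last a cytosolic leucyl-tRNA synthetase. Those most like Shmt2 were Slc25a38 (0.98), a mitochondrial glycine carrier, Col26a1 (0.97) and Tango6 (0.97).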

How the data were processed

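The 9 genes and the lists of related genes were chosen with earlier results of these data known. The authors deposited 1 table of whole-number counts per gene for 16 libraries, with a gene length for each row, per the file headers. Library preparation used a stranded mRNA kit, per the labels' protocols, and fastp, STAR and featureCounts were used with the build mm10, per the submitters' processing notes. Their versions, the annotation and the strand setting of the counting are not given in the sources used here.

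Genes were kept with edgeR's filterByExpr (minimum count 10, minimum total 15), which left 14288 genes. All 16 libraries entered 1 fit with a term per group, scaled by the trimmed mean of M values, in R 4.3.3 with edgeR 4.0.16 and limma 3.58.1. The test was the quasi-likelihood F test, two-sided. Each gene had 8 residual degrees of freedom, and the robust fit also borrowed information on the spread across genes. P-values were adjusted by Benjamini-Hochberg over the 14288 genes in each of 17 comparisons. Alternatives used DESeq2 1.42.0, its size factors, library size only, no filter beyond 1 count, the replicate number as a block, only the groups compared, removal of 31 ribosomal RNA genes and omission of each library. The procedure was also run on counts simulated from its own fitted means and spreads, which cannot show how well that model holds for these libraries.

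All 9 members were named. From each list up to 4 genes with the smallest adjusted p at 40 h were named, and for likeness the 3 highest correlations. Gene positions and promoter windows are from RefSeq on GRCm38.p6, and exons and overlaps from GENCODE on the same assembly. Aldh1l2 is not in the promoter windows used here. The SE values come from the quasi-likelihood fit, which includes the spread between libraries as well as counting error, and the SD values are of 2 libraries. Whether that spread includes separate cultures is not given. The floor of 3 counts covers counting error only.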

Additional observations from a re-analysis of the deposited data

Results flagged for a closer look

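In 22 combinations of member and time the interaction was called, which means that the exit effects of the media differed when that difference was tested. Of all tested genes, 4.8% were called above 0 and 4.4% below at 12 h. These shares were 9.77% and 11% at 24 h, and 14.8% and 12.8% at 40 h. The interaction is given here as the exit effect after serum/LIF+2i minus that after 2i/LIF, on the log2 scale. At 12 h the values were 0.40 for Phgdh, 0.31 for Psat1, 0.37 for Shmt2, 0.23 for Mthfd2 and -0.23 for Mthfd1. At 24 h they were 0.37 for Phgdh, 0.22 for Psat1, 0.65 for Psph, 0.70 for Shmt2, 0.79 for Mthfd2, 0.26 for Mthfd1l and 1.76 for Aldh1l2, and -0.25 for Shmt1 and -0.21 for Mthfd1. At 40 h they were 0.40 for Phgdh, 0.32 for Psph, 0.76 for Shmt2, 0.24 for Mthfd2, 0.17 for Mthfd1l and 1.16 for Aldh1l2, and -0.23 for Shmt1 and -0.34 for Mthfd1. All values at the 3 times share the 0 h libraries of both media. The 12 h values of Phgdh and Mthfd2 were not called with DESeq2 (adjusted p = 0.103 and 0.115).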

How the results depend on the processing

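Over 7 alternatives for 153 values of single members, 1024 of 1071 kept their direction and call, 21 lost the call, 13 gained one and 13 changed sign. Of 2448 values without 1 library, 2367 kept both, 45 lost the call, 13 gained one and 23 changed sign. The sign changes were all in values that were not called, and their cause was not tested. The changed values lay near 0, except those of Aldh1l2 without 1 library. With DESeq2 the interaction called 3 members at 12 h and 5 at 40 h, and without 1 library 3 to 5 and 5 to 8 members. Over all genes DESeq2 called 576, 1764 and 2397 in the interactions at 12, 24 and 40 h, where edgeR called 1315, 2966 and 3940. In the medium comparisons at 0, 12, 24 and 40 h it called 3097, 2668, 2717 and 2005 against 4710, 4334, 4439 and 3897, and edgeR called 2240 at 40 h without replicate 1 of the 2i/LIF course.

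The values that changed sign were as follows, on the log2 scale. With library size only, Mthfd1 was at 0.0058 in the 24 h exit effect from 2i/LIF and 0.0051 in the 24 h medium comparison, Phgdh at 0.00021 in the 12 h exit effect from 2i/LIF and Shmt2 at 0.032 in the 24 to 40 h step of 2i/LIF. Without ribosomal RNA genes these values were 0.00030 for Mthfd1 (exit), 0.017 for Phgdh and 0.0023 for Shmt2, with 0.012 for Psat1 in the 12 h exit effect from 2i/LIF and -0.010 for Shmt1 in its 12 to 24 h step. Without the filter Phgdh was at 0.0010 and Shmt1 at -0.0033, and Shmt2 was at 0.0061 with DESeq2 and with its size factors. Without 1 library, the 12 h exit effect from 2i/LIF ran from -0.35 to 0.33 for Aldh1l2, -0.036 to 0.0037 for Phgdh and -0.043 to 0.0036 for Psat1. The 0 h medium difference ran from -0.32 to 0.36 for Aldh1l2, -0.0087 to 0.089 for Mthfd1l, -0.13 to 0.024 for Mthfd2 and -0.0080 to 0.23 for Psph, and that at 12 h from -0.051 to 0.082 for Shmt1. The interaction ran from -0.48 to 0.20 for Aldh1l2 at 12 h and -0.034 to 0.013 for Psat1 at 40 h. The steps of 2i/LIF ran from -0.0072 to 0.012 for Shmt1 (12 to 24 h) and -0.066 to 0.037 for Shmt2 (24 to 40 h).

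The labels give every group replicates 1 and 2. Over all tested genes, same-numbered libraries did not deviate together (r of deviations -0.023 to 0.033 over 28 pairs of groups). Such a correlation can miss a shared culture or day that touches only some genes, and the labels name neither. With the replicate block the members called became 8 from 7 in the 24 h exit effect of 2i/LIF, 8 from 6 in its 12 to 24 h step and 6 from 5 in the interaction at 12 h, and the other 14 counts did not move. Depth limits Aldh1l2 most.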
